A study of Homo sapiens with 12 samples.

Results

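The genes examined here were the chaperone HSP90 in its cytosolic and mitochondrial forms, the co-chaperones that load, speed up or hold it, and HSF1, the transcription factor of the heat shock response. They were 10 genes of the 34227 listed in either table, taken by their names as the tables give them (HSP90AA1, HSP90AB1, TRAP1, AHSA1, STIP1, CDC37, PTGES3, FKBP4, FKBP5 and HSF1). All 10 were found in both tables and all 10 passed the filter on low values, with at least 196 reads in every library. RNA-seq had been run on SCC15 and SCC25, a pair of human cell lines from oral squamous cell carcinoma with the genotype labelled WT, each treated for 24 h either with squamocin (labelled ACGs, for annonaceous acetogenins) or with DMSO, the solvent. Each of the 4 groups held 3 libraries, and nothing in the labels says whether these came from separate cultures, so that the errors measure the spread between libraries, which may be technical. Each model is a single established line, and the dose is not among the labels.

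HSP90 is an ATP-driven chaperone dimer that takes partly folded clients, kinases and steroid receptors above all, to their active shape. HSP90AA1 encodes the inducible cytosolic form, HSP90α, which the study examined as a binding target of squamocin, and HSP90AB1 the constitutive form, HSP90β. HSF1 is held inactive by chaperones, and when misfolded proteins draw these away it binds heat shock elements, inverted repeats of the unit GAA, and raises transcription of chaperone genes. Squamocin is also known as an inhibitor of mitochondrial Complex I, and TRAP1 is the HSP90 of mitochondria.

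The promoter stretches that hold heat shock elements are shown because, of the members whose promoters could be searched, HSP90AA1 and HSP90AB1 were the ones that held them. Windows of 250 bases before each start were searched for the palindromes GAANNTTC and TTCNNGAA, which read the same on both strands, and for the longer form in which such palindromes overlap, so that another unit follows at the same spacing. RefSeq promoters (GRCh38.p14) were present in the table for 8 of the 10 members, as 14 promoters, and not for FKBP4 and HSF1. A palindrome stood in 2 of these 14 promoters and in 11.6% of all 35116 promoters of that length, and a longer form in 0.441% of all promoters. In the lines below, capitals mark the GAA or TTC units that make up the matches, 5′ to 3′ on the gene's own strand.
HSP90AA1, chr14:102087095-102087142, minus strand: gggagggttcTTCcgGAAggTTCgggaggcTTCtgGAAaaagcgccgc
HSP90AB1, chr6:44247768-44247853, plus strand: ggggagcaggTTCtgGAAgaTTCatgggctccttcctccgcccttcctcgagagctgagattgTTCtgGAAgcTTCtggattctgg
The HSP90AA1 stretch lies 98 to 51 bases before its main start, with 3 palindromes and 1 longer form in the window. The HSP90AB1 stretch lies 175 to 90 bases before a start inside the gene, 842 bases past the main start, with 4 palindromes and 2 longer forms. Of all promoters, 0.145% held 3 or more palindromes, a cut that equals the lower of these counts and so favours these windows. Each longer form holds 2 overlapping palindromes, so the palindromes are not all separate sites. The other start of HSP90AA1 and the other starts of HSP90AB1 held none, nor did the windows of TRAP1, AHSA1, STIP1, CDC37, PTGES3 and FKBP5. A match is a run of letters, and binding was not measured.

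The values are normalized counts, that is, reads per gene divided by 1 size factor per library, with the factors set within each cell line's table. Whole reads recovered from them numbered 16665563 to 22748845 per library. Normalized counts summed to 15466464 to 15535484 in SCC15 DMSO libraries and 20467856 to 24626253 with squamocin, and to 18245022 to 18333723 and 20917114 to 21265099 in SCC25. Under equal totals the log2 fold changes of all genes shifted by a median of -0.50 in SCC15 and -0.21 in SCC25, so that the members' values under that scaling stand beside each result it alters. Replicate 3 of SCC15 with squamocin stood apart, with a chi-square per degree of freedom of 71.6 and 63.5 against replicates 1 and 2, and replicate 3 of SCC25 with squamocin by less, at 7.39 and 11.02, where the other pairs within a group gave 1.72 to 3.65. Reads of the mitochondrial genome made up 1.69% to 1.73% of SCC15 DMSO libraries and 0.796% to 0.959% with squamocin, and 4.37% to 4.54% and 2.45% to 3.50% in SCC25, lowest in that replicate 3. In bulk RNA, fewer cells expressing a gene and less of its RNA per cell cannot be told apart.

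Of the 10 squamous and epithelial markers, KRT17 was abundant in both lines, at 112298 normalized counts in SCC15 DMSO and 6064 in SCC25 DMSO. KRT14 (759.4 and 371.7), KRT6A (134.0 and 97.8), SFN (2424 and 5157) and CDH1 (524.9 and 5204) were also present in both. SCC15 had little of the other markers, with DMSO means of 17.5 for TP63, 9.50 for KRT5, 1.44 for DSG3, 0.284 for DSC3 and 11.4 for the general epithelial marker EPCAM, while SCC25 had 4512, 5627, 649.6, 1567 and 2942. Summed markers of fibroblasts (6 genes) were 708.4 to 783.9 in SCC15 DMSO and 481.5 to 485.6 with squamocin, and 765.6 to 809.6 and 1073 to 1228 in SCC25. These sums came from different genes. DMSO means in SCC15 and SCC25 were 444.6 and 0.54 for COL3A1, 131.3 and 0.57 for DCN, and 150.8 and 575.7 for COL1A1. Summed markers of leukocytes (6 genes) were 502.5 to 547.3 and 321.1 to 502.7 in SCC15 and 437.3 to 514.5 and 138.5 to 174.3 in SCC25, with PTPRC at a mean of 3.05 in SCC15 DMSO and not listed in SCC25. Most of the leukocyte sum with DMSO was CD14, which went from 504.4 to 378.6 in SCC15 and from 351.3 to 4.81 in SCC25. Endothelial markers (5 genes) summed to 163.8 to 181.1 and 66.1 to 77.5 in SCC15 and 235.3 to 295.9 and 19.8 to 37.7 in SCC25. Their part in the members' values was not tested.

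The response of the group depended on the cell line. In SCC15, 7 of the 10 members rose with squamocin and 1 fell by limma at an adjusted p of 0.05, where 30.9% of all 15902 tested genes rose, 30% fell and 61% did either. In SCC25, 5 rose and 5 fell, where 38.3% of all 16539 tested genes rose, 38.5% fell and 76.8% did either. The median log2 fold change of the members was 0.58 in SCC15 and -0.09 in SCC25, beside 0.01 and -0.01 over all tested genes. When totals were set equal, the counts were 3 higher and 3 lower in SCC15, against 14.6% and 51% of all genes, and 3 higher and 6 lower in SCC25, against 30.3% and 47.6%. With the size factors as given, the squamocin and DMSO libraries did not overlap for any of the 10 members in either line. Of all tested genes, 70.6% showed such a separation in SCC15 and 79% in SCC25. It was not counted at equal totals, where the fold changes of HSP90AA1 and AHSA1 in SCC15 and HSP90AB1 in SCC25 reversed.

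**Figure D1:**
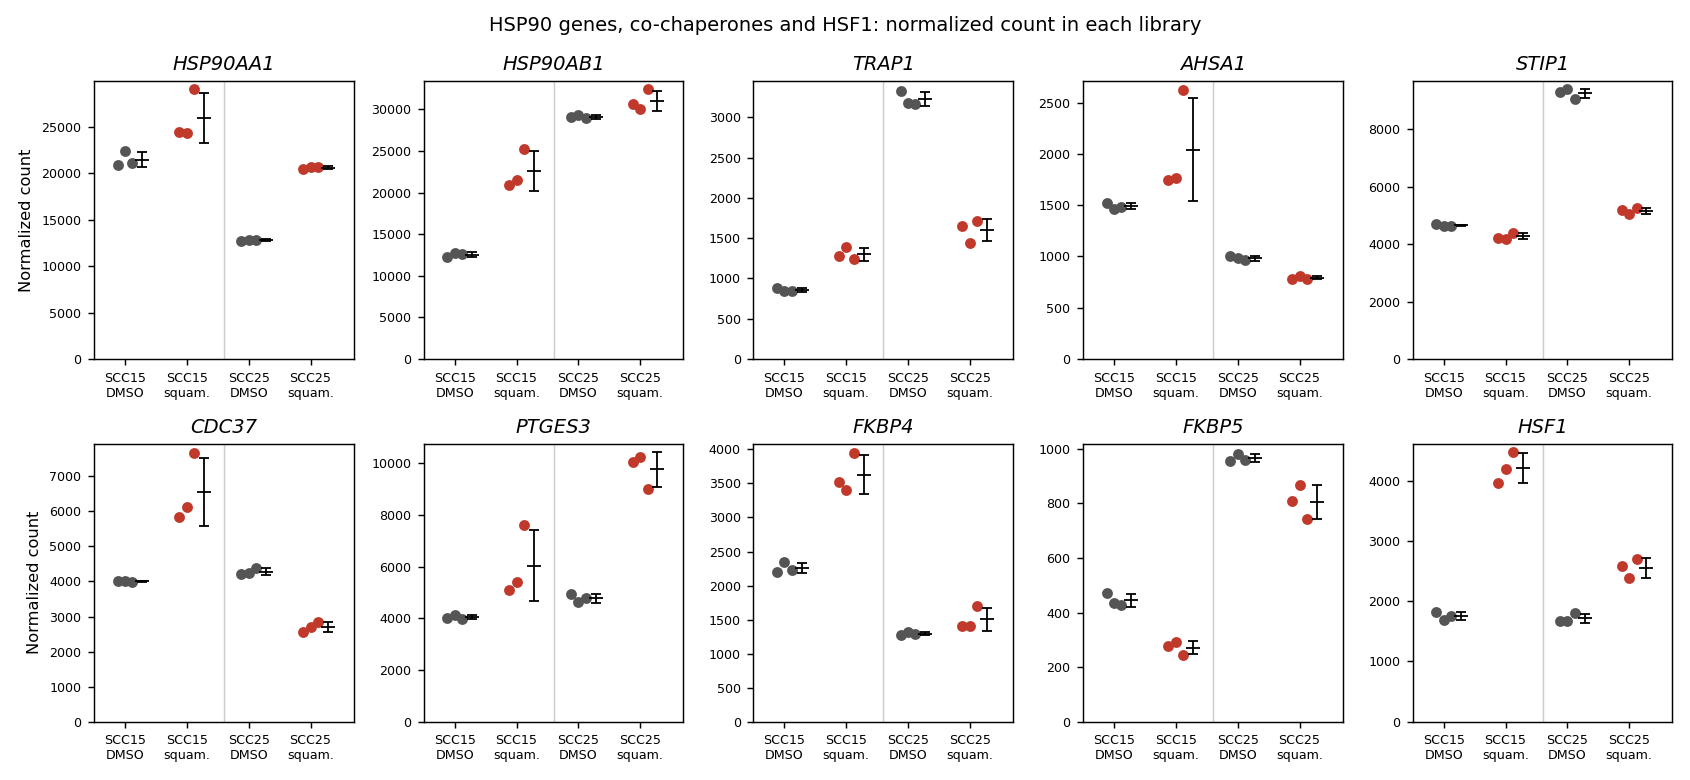
Normalized count (linear axis from 0) of each of the 10 genes in every library, grey for DMSO and red for squamocin, with the mean and SD (n = 3) beside each group; counts of SCC15 and SCC25 were scaled separately. HSF1 and PTGES3 are higher with squamocin in both lines, FKBP5 is lower in both, and TRAP1 and CDC37 go up in SCC15 and down in SCC25.

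HSP90AA1 (ENSG00000080824, chr14:102080738-102139699, GRCh38, minus strand) had normalized counts of 12741, 12826 and 12849 in the SCC25 DMSO libraries and 20401, 20644 and 20672 with squamocin. All squamocin libraries were above all DMSO libraries, by 1.61-fold in the mean, and the gene rose (log2 fold change 0.68 ± 0.03 SE, limma adjusted p = 1.51e-09). In SCC15 the values were 20911, 22346 and 21065 with DMSO and 24384, 24372 and 29095 with squamocin. The groups did not overlap here either, yet the change was not called (log2 fold change 0.27 ± 0.12, limma adjusted p = 0.0823). Without replicate 3 of the squamocin group, the highest library, the log2 fold change in SCC15 was 0.19 with an adjusted p of 0.000284, and DESeq2 called the rise with all libraries (0.28, adjusted p = 0.0239). At equal totals it turned to -0.23 (adjusted p = 0.0356), while SCC25 stayed at 0.48 (adjusted p = 6.52e-08).

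HSP90AB1 (ENSG00000096384, chr6:44246166-44253888, plus strand) showed the opposite order of the cell lines. In SCC15 its normalized counts were 12241, 12762 and 12638 with DMSO and 20900, 21528 and 25298 with squamocin. Every squamocin library was far above every control, 1.80-fold in the mean, and the rise was called (log2 fold change 0.84 ± 0.11, limma adjusted p = 0.000637). In SCC25 the values were 29069, 29382 and 28914 with DMSO and 30626, 30007 and 32404 with squamocin. The ranges were separate but close, and the change was just past the threshold (log2 fold change 0.09 ± 0.04, limma adjusted p = 0.0494). That call was lost with DESeq2 (adjusted p = 0.0625), with TMM factors (0.083) and without any of the DMSO libraries or squamocin replicate 1 (0.0866 to 0.148). Without squamocin replicate 3 it was 0.06 (adjusted p = 0.0163), and with equal library totals HSP90AB1 was lower in SCC25 (log2 -0.12, adjusted p = 0.02) and still higher in SCC15 (0.34, adjusted p = 0.00519).

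The ratio of the isoforms within a library does not depend on any scaling. HSP90AA1 gave 1.71, 1.75 and 1.67 reads per read of HSP90AB1 in the SCC15 DMSO libraries and 1.17, 1.13 and 1.15 with squamocin. In SCC25 the ratio was 0.438, 0.437 and 0.444 with DMSO and 0.666, 0.688 and 0.638 with squamocin. So the isoform that gave fewer reads in the control was the one that gained share, HSP90β in SCC15 and HSP90α in SCC25. The mean ratio changed by a factor of 0.673 in SCC15 and 1.51 in SCC25, without overlap in either line (two-sided exact permutation p = 0.1 each, the smallest that 3 against 3 libraries allow). Both isoforms together took 0.214% to 0.226% of reads in SCC15 DMSO libraries and 0.22% to 0.221% with squamocin, ranges that overlapped. In SCC25 their share was 0.228% to 0.231% with DMSO and 0.238% to 0.254% with squamocin, without overlap.

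The 6 pseudogenes named after HSP90AA, HSP90AB and HSP90B were listed in both tables. Reads of near-identical copies may be split between them and the parent genes. Their summed normalized counts were 0.21% to 0.391% of those of HSP90AA1 and HSP90AB1 in SCC15 and 0.115% to 0.24% in SCC25. HSP90AA2P, the most abundant of them in SCC15, had a mean of 39.8 ± 6.89 (SD) in SCC25 DMSO and 19.1 ± 3.33 with squamocin and fell (log2 fold change -1.02, limma adjusted p = 0.00294), where HSP90AA1 rose. In SCC15 it had means of 83.4 ± 9.01 and 63.6 ± 8.18 and was not called (adjusted p = 0.0801). HSP90AB3P, the most abundant in SCC25 at means of 49.3 and 32.6, also fell there (log2 fold change -0.57, adjusted p = 0.0359). HSP90AA1 shares 3.87% of its exonic bases with WDR20 on the opposite strand, which had means of 562.1 and 425.9 in SCC15 and 516.9 and 756.8 in SCC25, and since the counting is not stated to use strand, such reads cannot be told apart.

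TRAP1 (ENSG00000126602, chr16:3651639-3717597, minus strand), the mitochondrial HSP90, changed in opposite directions. The SCC25 DMSO libraries held 3327, 3176 and 3170 normalized counts and those with squamocin 1651, 1442 and 1712. All treated libraries were far below all controls, at 0.497 of the control mean (log2 fold change -1.01 ± 0.06, limma adjusted p = 9.14e-09). SCC15 had 880.4, 849.1 and 843.3 with DMSO and 1274, 1394 and 1240.5 with squamocin. There every treated library was above the controls and TRAP1 rose 1.52-fold (log2 fold change 0.60 ± 0.08, limma adjusted p = 0.000767). Under equal library totals the fold change was 0.10 in SCC15, not called (adjusted p = 0.459), and -1.22 in SCC25. DNASE1 on the opposite strand shares 28.5% of the exonic bases of TRAP1, and it fell in both lines, from 449.9 ± 44.4 to 198.8 ± 38.0 in SCC15 and from 382.2 ± 22.4 to 258.8 ± 42.4 in SCC25.

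AHSA1 (ENSG00000100591, chr14:77457870-77469474, plus strand) encodes AHA1, which speeds up the ATPase of HSP90. Its SCC25 normalized counts were 1009, 982.3 and 961.3 with DMSO and 784.2, 809 and 783.8 with squamocin. These did not overlap, and AHSA1 fell to 0.805 of the control (log2 fold change -0.31 ± 0.05, limma adjusted p = 0.000153). In SCC15 it had 1524, 1460 and 1485 with DMSO and 1747, 1761 and 2618 with squamocin. Replicate 3 lay well above the other treated libraries, and the rise was just called (log2 fold change 0.43 ± 0.16, limma adjusted p = 0.0481). Without that library the log2 fold change was 0.24, leaving out any DMSO library lost the call (adjusted p = 0.106 to 0.127), and with equal library totals the value turned to -0.07 (adjusted p = 0.587), and that of SCC25 was -0.52.

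STIP1 (ENSG00000168439, chr11:64185272-64204543, plus strand) encodes HOP, the adaptor that bridges HSP70 and HSP90 and hands over clients. In SCC25 it had 9285, 9394 and 9063 normalized counts with DMSO and 5188, 5050 and 5241 with squamocin. The treated libraries were all below the controls, at 0.558 of their mean, and STIP1 fell (log2 fold change -0.84 ± 0.04, limma adjusted p = 5.56e-10). The SCC15 values were 4688, 4632 and 4633 with DMSO and 4222, 4194 and 4392 with squamocin. These too lay below the controls but by little, and the change was not called (log2 fold change -0.12 ± 0.08, limma adjusted p = 0.199). Without squamocin replicate 3 it was called (-0.14, adjusted p = 0.00287), as with equal library totals (-0.62, adjusted p = 0.000611).

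CDC37 (ENSG00000105401, chr19:10391134-10420121, minus strand), the adaptor that brings kinases to HSP90, went the way of TRAP1. SCC15 held 4015.5, 4014 and 3974 normalized counts with DMSO and 5852, 6133 and 7671 with squamocin. All treated libraries were above the controls, 1.64-fold in the mean (log2 fold change 0.70 ± 0.12, limma adjusted p = 0.0017). SCC25 had 4219, 4240 and 4385 with DMSO and 2547, 2692 and 2850 with squamocin. Here CDC37 fell to 0.63 of the control (log2 fold change -0.67 ± 0.05, limma adjusted p = 4.7e-08), from control means that were 4001 in SCC15 and 4281 in SCC25. With equal library totals both directions remained, at 0.20 (adjusted p = 0.0434) and -0.88.

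PTGES3 (ENSG00000110958, chr12:56663341-56688408, minus strand) encodes p23, which binds the closed, ATP-bound HSP90 and slows its cycle. In SCC25 its normalized counts were 4955, 4616 and 4773 with DMSO and 10059, 10235 and 8999 with squamocin. This was the largest rise of the members in SCC25, 2.04-fold (log2 fold change 1.03 ± 0.05, limma adjusted p = 1.68e-09). SCC15 had 4025, 4139 and 3984 with DMSO and 5105, 5401 and 7625 with squamocin. All treated libraries were above the controls there too, with replicate 3 the highest, and the rise was called (log2 fold change 0.55 ± 0.15, limma adjusted p = 0.0159). The SCC15 call was lost without DMSO replicate 1 (adjusted p = 0.0557) or 3 (0.0579) and with equal library totals (log2 0.06, adjusted p = 0.636), where the log2 fold change of SCC25 was 0.82.

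FKBP4 (ENSG00000004478, chr12:2794953-2805423, plus strand) and FKBP5 (ENSG00000096060, chr6:35573585-35728583, minus strand) encode FKBP52 and FKBP51, immunophilins that compete for steroid receptor complexes of HSP90. FKBP52 favours receptor activity, and FKBP51 holds the glucocorticoid receptor back and is itself a target gene of it. FKBP4 in SCC15 had normalized counts of 2204, 2345 and 2224 with DMSO and 3517, 3408 and 3949 with squamocin. The treated libraries were clearly higher, 1.61-fold (log2 fold change 0.68 ± 0.09, limma adjusted p = 0.0006). In SCC25 FKBP4 had 1276, 1318 and 1282 with DMSO and 1408, 1403 and 1702 with squamocin. The rise was small and called (log2 fold change 0.21 ± 0.07, limma adjusted p = 0.0142), and without squamocin replicate 3, the highest library, it was 0.12 (adjusted p = 0.0153). Neither call held with equal library totals, at 0.18 (adjusted p = 0.0646) and 0.01 (0.945).

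FKBP5 was the member called lower in both lines, and with equal library totals STIP1 was too (-0.62 and -1.05). SCC15 had 471.8, 434.1 and 428.6 normalized counts with DMSO and 277, 291.8 and 243.9 with squamocin. All treated libraries were below the controls, at 0.609 of their mean (log2 fold change -0.72 ± 0.11, limma adjusted p = 0.00106). SCC25 had 956.6, 981.4 and 959.5 with DMSO and 807.1, 868.3 and 742.7 with squamocin. There FKBP5 fell to 0.835 of the control (log2 fold change -0.26 ± 0.06, limma adjusted p = 0.00225). The falls were larger at equal totals, -1.21 and -0.47. Of the reads of both immunophilin genes, FKBP5 gave 15.6% to 17.6% in SCC15 DMSO libraries and 5.82% to 7.89% with squamocin, and 42.7% to 42.9% and 30.4% to 38.2% in SCC25, without overlap in either line.

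HSF1 (ENSG00000185122) rose in both lines and had the largest fold change of the members in SCC15. The SCC15 normalized counts were 1813, 1686 and 1752 with DMSO and 3962, 4194 and 4468 with squamocin. Every treated library held more than the highest control by a wide margin, 2.40-fold in the mean (log2 fold change 1.26 ± 0.08, limma adjusted p = 3.74e-05). In SCC25 it had 1668, 1669.5 and 1806 with DMSO and 2581, 2376 and 2702 with squamocin. The rise was 1.49-fold there (log2 fold change 0.57 ± 0.06, limma adjusted p = 9.98e-07). Under equal totals HSF1 remained higher, by 0.77 (adjusted p = 0.000188) and 0.37 (adjusted p = 9.47e-05). DGAT1 on the opposite strand shares 2.58% of its exonic bases and rose likewise, from 824.2 ± 41.2 to 1963 ± 98.8 in SCC15 and from 557.6 ± 26.2 to 789.1 ± 9.19 in SCC25.

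**Figure D2:**
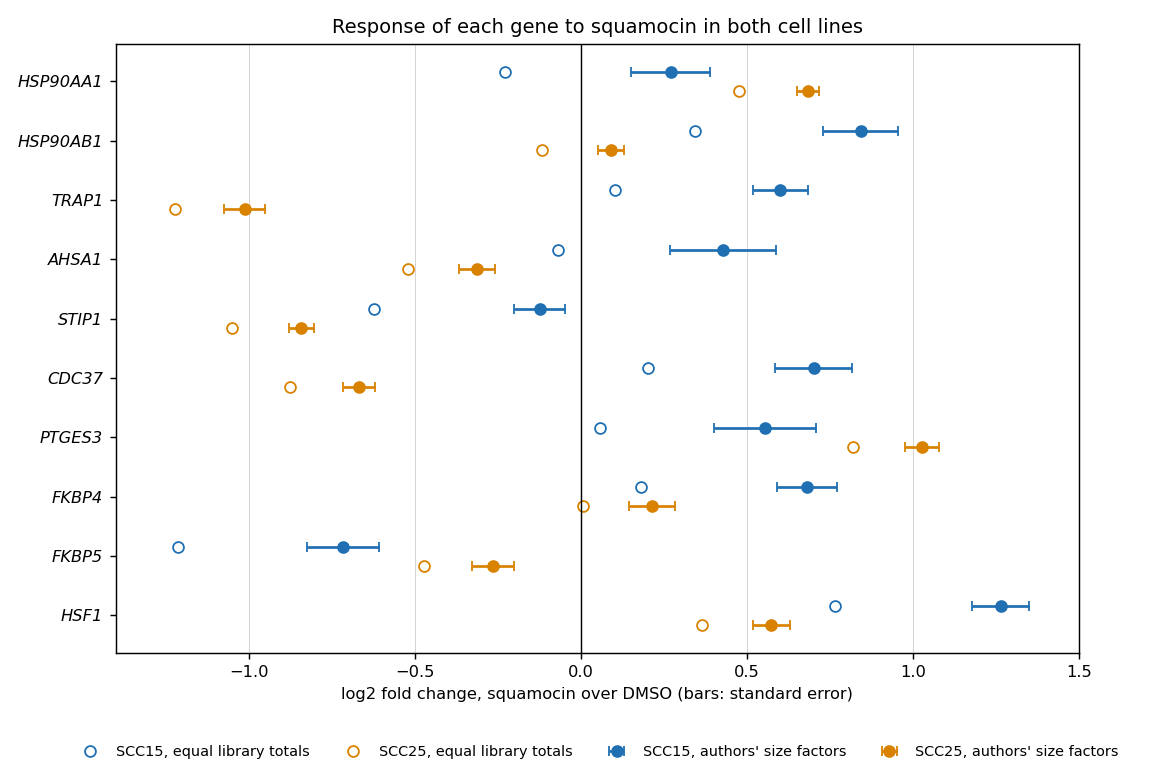
Log2 fold change of squamocin over DMSO for each gene, blue for SCC15 and orange for SCC25, as filled points with the standard error of the fit (3 libraries per group) and as open points with equal library totals. Open points lie left of filled points throughout, and in SCC15 those of HSP90AA1 and AHSA1 cross 0, as does that of HSP90AB1 in SCC25.

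The difference between the cell lines was itself tested in the 12 libraries. All 10 members differed in response at a limma adjusted p of 0.05, where 52.2% of the 14454 genes tested in both lines did. As SCC25 minus SCC15 on the log2 scale, TRAP1 differed most (-1.61 ± 0.11, limma adjusted p = 1.66e-07), followed by CDC37 (-1.37 ± 0.13, adjusted p = 2.79e-06). TRAP1, CDC37 and AHSA1 were called higher in SCC15 and lower in SCC25, a pattern of 3 of 10 members and 5.44% of all genes tested in both. The reverse pattern, in 4.66% of all genes, was seen in 0 members, and FKBP5 shared its fall in both lines with 18.6% of all genes. HSP90AB1, PTGES3, FKBP4 and HSF1, 4 of the 10 members, rose in both lines, as did 22.1% of all genes. These patterns hold with the size factors as given. At equal totals CDC37 kept both its calls, while TRAP1 (0.10) and AHSA1 (-0.07) lost theirs in SCC15. HSF1 alone was still called a riser in both lines. Under that scaling HSP90AB1 fell in SCC25 (-0.12), PTGES3 was not called in SCC15 (0.06), and FKBP4 was called in neither line. Shares of all genes with these patterns at equal totals are not given. Of the 4 members that rose in both lines, HSP90AB1 (-0.75 ± 0.12), HSF1 (-0.69 ± 0.10) and FKBP4 (-0.47 ± 0.12) had the smaller response in SCC25. Their limma adjusted p ran from 0.000115 to 0.00546. PTGES3 and HSP90AA1 had the larger response in SCC25, by 0.47 ± 0.17 (limma adjusted p = 0.0344) and 0.41 ± 0.12 (adjusted p = 0.0112). The PTGES3 difference lost its call, at 0.36 to 0.50, when any library other than replicate 3 of either squamocin group was left out, and with equal library totals the FKBP4 difference was -0.18 and not called (adjusted p = 0.206). The other 9 differences kept their direction and call at equal totals, and 7 of them moved by over 1.5 times, among them HSP90AB1 (-0.46), HSF1 (-0.40), HSP90AA1 (0.70) and PTGES3 (0.76).

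Reads of the other members were also set against the HSP90 reads of the same library, a measure free of scaling. STIP1 gave 13.7 ± 0.475 (SD, n = 3) reads per 100 reads of HSP90AA1 and HSP90AB1 in SCC15 DMSO and 8.84 ± 0.673 with squamocin, and 22.1 ± 0.308 and 10.004 ± 0.149 in SCC25. It was lower without overlap in both lines. CDC37 gave 11.8 ± 0.34 and 13.5 ± 0.597 in SCC15, a small rise, and 10.2 ± 0.25 and 5.23 ± 0.204 in SCC25, at 0.512 of the control. PTGES3 gave 11.9 ± 0.194 and 12.4 ± 1.46 in SCC15, where the libraries overlapped (exact permutation p = 1), and 11.4 ± 0.457 and 19.0 ± 1.75 in SCC25, where they did not. HSF1 gave 5.16 ± 0.335 and 8.70 ± 0.463 in SCC15 and 4.09 ± 0.203 and 4.95 ± 0.222 in SCC25, higher without overlap in both. TRAP1 and AHSA1 overlapped in SCC15 (exact permutation p = 0.5 and 0.6) and were lower without overlap in SCC25, at 3.10 against 7.69 and 1.54 against 2.35. The ratios without overlap each had the exact permutation p of 0.1, the smallest possible.

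**Figure D3:**
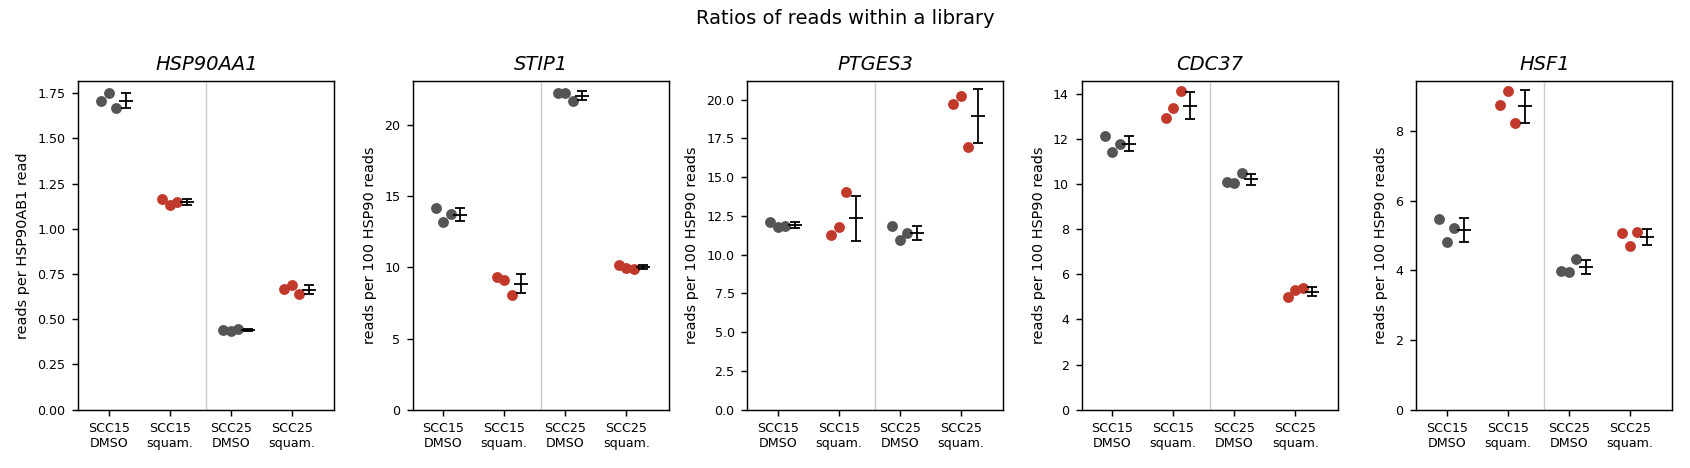
Ratios of reads within a library (linear axes from 0), grey for DMSO and red for squamocin, with mean and SD (n = 3): HSP90AA1 reads per HSP90AB1 read, then STIP1, PTGES3, CDC37 and HSF1 reads per 100 reads of HSP90AA1 and HSP90AB1. The isoform ratio falls in SCC15 and rises in SCC25, and STIP1 falls in both.

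Per kilobase of the MANE transcript, the reference transcript of each gene, HSP90AA1 and HSP90AB1 were the 2 most abundant members in every group other than SCC25 DMSO. In SCC15 DMSO, HSP90AA1 had 6642 ± 244 (SD, n = 3) normalized counts per kb and HSP90AB1 4911 ± 107, and with squamocin HSP90AB1 led at 8836 ± 931 over HSP90AA1 at 8039 ± 844, which overlapped. In SCC25 DMSO, HSP90AB1 had 11398 ± 93.3 and HSP90AA1 3967 ± 17.7, below STIP1 at 4321 ± 78.8. With squamocin HSP90AA1 reached 6373 ± 46.2 and stood next to HSP90AB1 at 12138 ± 487, above PTGES3 at 5144 ± 352 and STIP1 at 2411 ± 46.2. FKBP5 was the lowest member per kb in all 4 groups, at 72.2 to 257.6. Neighbours in order whose libraries overlapped were STIP1 and PTGES3 in SCC15 DMSO, CDC37 and PTGES3, STIP1 and HSF1, and HSF1 and AHSA1 in SCC15 with squamocin, and CDC37 and PTGES3 in SCC25 DMSO. Over all annotated exons in place of the MANE transcript, HSP90AB1 came before HSP90AA1 in SCC15 DMSO (4210 and 4207 per kb) and HSP90AA1 before STIP1 in SCC25 DMSO.

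Counts per library scaled to a common total (CPM) allow the cell lines to be set side by side, without a test. HSP90AA1 had a CPM of 1383 ± 48.6 (SD, n = 3) in SCC15 DMSO and 700.4 ± 4.85 in SCC25 DMSO, and 1181 ± 10.5 and 974.1 ± 12.9 with squamocin. HSP90AB1 had 809.3 ± 17.6 and 1593 ± 13.2 with DMSO and 1027 ± 6.28 and 1469 ± 71.8 with squamocin. For both genes the lines were closer to each other after squamocin than before it. TRAP1 had 55.3 ± 1.25 and 176.3 ± 4.44 with DMSO and 59.9 ± 8.54 and 75.9 ± 7.24 with squamocin. PTGES3 began alike, at 261.2 ± 4.65 and 261.5 ± 8.81, and ended at 272.8 ± 32.3 in SCC15 and 462.1 ± 27.8 in SCC25.

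A list of 30 related genes holds other co-chaperones and HSP90B1, the HSP90 of the endoplasmic reticulum (GRP94), and all 30 passed the filter on low values in both lines. In SCC15, 15 rose and 3 fell, and in SCC25, 14 rose and 11 fell, with median log2 fold changes of 0.33 and 0.11, where 30.9% of all genes rose and 30% fell in SCC15, and 38.3% and 38.5% in SCC25. When totals were set equal, 5 rose and 10 fell in SCC15, against 14.6% and 51% of all genes. Those in SCC25 were 12 and 14, against 30.3% and 47.6%. The counts that rose in SCC15 and that fell in SCC25 were near these shares. With the size factors as given, the count that fell in SCC15 was 7 without squamocin replicate 3, and the count that rose was 9 without DMSO replicate 2. HSP90B1 had the largest rise in the mean of both lines, from 16125 normalized counts to 68576 in SCC15 (log2 fold change 2.07 ± 0.15) and from 13565 to 45026 in SCC25 (1.73 ± 0.04). CHORDC1, whose protein binds HSP90 as CHP-1, rose by 0.70 ± 0.13 and, more than HSP90B1, by 2.01 ± 0.05 in SCC25, and the low TTC4 rose by 1.54 ± 0.23 and 1.00 ± 0.28. FKBPL (-1.19 ± 0.22 and -1.21 ± 0.14) and NUDCD3 (-0.28 ± 0.08 and -0.65 ± 0.05) fell in both. The 6 genes FKBP8, PPP5C, NUDC, RUVBL2, STUB1 and DNAJC7 rose in SCC15 and fell in SCC25, and these were named after their values were seen. Of all genes tested in both lines, 5.44% had that pattern. At equal totals FKBP8 alone of the 6 was still called higher in SCC15 (0.63), PPP5C (0.08), NUDC (0.06) and STUB1 (0.12) were above 0 without a call, and RUVBL2 (-0.03) and DNAJC7 (-0.18) were below 0.

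Among HSF1 targets of the heat shock response more genes rose than fell in both lines. Of 24 genes, all tested, 15 rose and 5 fell in SCC15 and 17 rose and 6 fell in SCC25, with 11 higher in both, and the medians were 0.61 and 0.87. Over all genes, 30.9% rose in SCC15, 38.3% in SCC25 and 22.1% in both, while 30% fell in SCC15 and 38.5% in SCC25. The 5 that fell in SCC15 became 2 or 3 without any of its libraries other than squamocin replicate 3. At equal totals 9 rose and 9 fell in SCC15, where 14.6% of all genes rose and 51% fell. The counts in SCC25 were 17 and 7, against 30.3% and 47.6% of all genes. CRYAB, a small heat shock protein of low control level, went from 30.2 normalized counts to 262.8 in SCC15 (log2 fold change 3.05 ± 0.23) and from 11.9 to 693.9 in SCC25 (5.80 ± 0.23). HSPA1A and HSPA1B, inducible HSP70 genes so alike that reads may be split between them, rose in SCC15 (2.01 ± 0.14 and 2.20 ± 0.10) as in SCC25 (2.04 ± 0.06 and 2.70 ± 0.04). HSPA1L (-1.63 ± 0.54 and -1.11 ± 0.23) and HSPA4 (-0.37 ± 0.12 and -0.18 ± 0.04) fell in both lines. Counts of HSPA1L were low, with means of 23.3 and 7.76 in SCC15 and 41.0 and 18.5 in SCC25. HSP90AA1 and HSP90AB1, known as targets of HSF1 too, were not counted in this list.

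**Figure D4:**
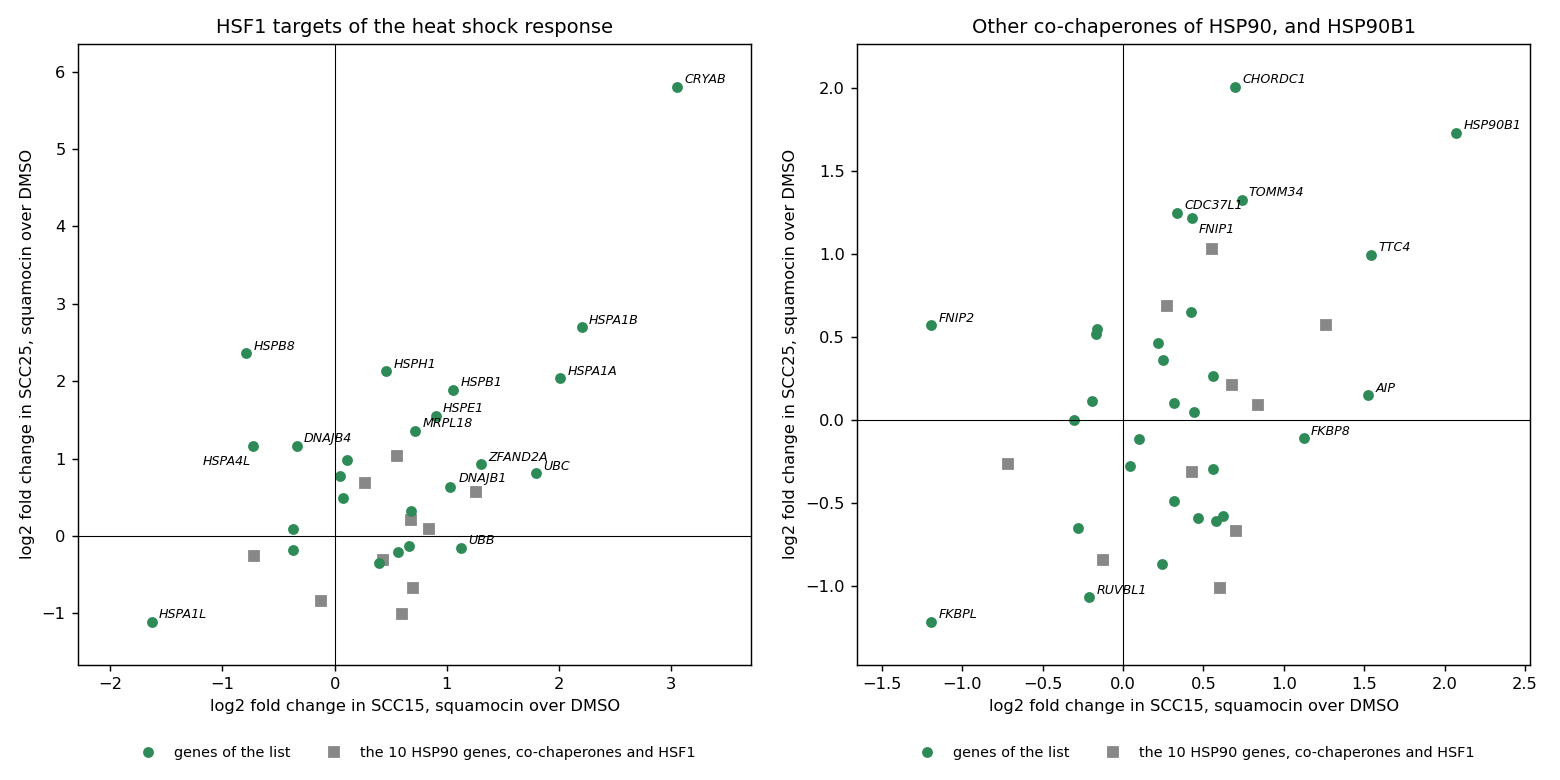
Log2 fold change in SCC25 against that in SCC15 (squamocin over DMSO), with the 10 members as grey squares in both panels. Green circles are the HSF1 targets (left) and the other co-chaperones of HSP90 with HSP90B1 (right). Genes past 1 on either axis are named, and CRYAB, HSPA1A and HSPA1B lie farthest to the upper right, with HSPB8, HSPA4L and DNAJB4 higher in SCC25 and lower in SCC15.

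The remaining lists cover regulators, the compartment of TRAP1 and clients. Of the HSF family and regulators of HSF1 (5 of 6 genes listed and tested), 4 rose in both lines, among them HSF2 (0.54 ± 0.10 and 1.40 ± 0.06), HSF4 (1.06 ± 0.11 and 0.60 ± 0.13) and HSBP1, whose protein binds HSF1 trimers (0.72 ± 0.18 and 0.65 ± 0.04), as did 22.1% of all genes. HSF2BP fell in SCC15 (-0.67), a call lost when any of its libraries other than squamocin replicate 3 was left out. In SCC25 it was not called (-0.59), except that it fell without squamocin replicate 1 and at equal totals. At equal totals 1 rose and 1 fell in SCC15, against 14.6% and 51% of all genes. The counts in SCC25 were 4 and 1, against 30.3% and 47.6%. Among 16 mitochondrial chaperones and proteases, 7 rose and 4 fell in SCC15, where 30.9% of all genes rose and 30% fell. The count that fell was near that share. In SCC25, 6 rose and 6 fell, near the 38.3% and 38.5% of all genes. The 4 that fell in SCC15 became 2 without any of its libraries other than squamocin replicate 3, and 6 without that one. HSPE1 (0.90 ± 0.15 and 1.56 ± 0.05), LONP1 (1.24 ± 0.08 and 0.35 ± 0.05) and HSPD1 (0.68 ± 0.14 and 0.32 ± 0.04) rose in both. HTRA2 (-0.75 ± 0.25 and -1.48 ± 0.13), OMA1 (-0.98 ± 0.13 and -0.84 ± 0.14) and AFG3L2 (-0.22 ± 0.08 and -0.85 ± 0.05) fell in both. With totals set equal, 3 of the list rose in SCC15 and 7 fell, near the 14.6% and 51% of all genes. The counts in SCC25 were 5 and 10, against 30.3% and 47.6%.

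The clients of HSP90 are kinases and receptors that depend on the chaperone as proteins, and their genes were counted too. Of 26 tested in SCC15, 5 rose and 7 fell, and of 30 tested in SCC25, 10 rose and 16 fell, with medians of 0.07 and -0.24. The share that fell in SCC15 and the share that rose in SCC25 were near those of all genes, 30% and 38.3%. The share that rose in SCC15 was below the 30.9% of all genes, and the share that fell in SCC25 was above the 38.5%, without a test. RIPK1 (-0.93 ± 0.09 and -2.09 ± 0.11), ERBB3 (-1.34 ± 0.12 and -1.07 ± 0.05) and PDPK1 (-1.37 ± 0.18 and -0.73 ± 0.07) fell in both lines. YES1 (0.21 ± 0.08 and 0.82 ± 0.07) and EPHA2 (0.50 ± 0.10 and 0.29 ± 0.06) rose in both, although in SCC15 neither was called higher with equal library totals, where YES1 was at -0.29. At equal totals the list's counts in SCC15 were 0 higher and 19 lower, against 14.6% and 51% of all genes. Those in SCC25 were 8 and 16, against 30.3% and 47.6%. With the size factors as given, 11 rose in SCC15 without squamocin replicate 3, and 2 or 3 without squamocin replicate 2 or any DMSO library.

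FKBP5 is a target of the glucocorticoid receptor, and most other targets on the list rose. Of 13 listed and tested in each line, 10 rose in SCC15 and 1 fell, and 10 rose in SCC25 and 2 fell. The medians were 1.72 and 1.13. Over all genes, 30.9% rose and 30% fell in SCC15, and 38.3% and 38.5% in SCC25. DUSP1 (3.18 ± 0.09 and 4.50 ± 0.04), PER1 (3.41 ± 0.16 and 3.64 ± 0.07) and TSC22D3 (2.96 ± 0.14 and 2.20 ± 0.06) rose in both lines, and SGK1 fell in both (-1.46 ± 0.09 and -1.72 ± 0.04). Under equal totals 9 rose and 1 fell in SCC15, against 14.6% and 51% of all genes. The counts in SCC25 were 10 and 3, against 30.3% and 47.6%. The receptor gene, NR3C1, had means of 2977 and 3122 in SCC15, not called, and 1631 and 2065 in SCC25, where it rose (log2 fold change 0.34 ± 0.05). Of 9 tested FKBP immunophilins beside FKBP4 and FKBP5, 3 rose and 0 fell in SCC15, and 5 rose and 1 fell in SCC25, with FKBP11 (0.75 ± 0.12 and 0.68 ± 0.07), FKBP2 (0.76 ± 0.20 and 0.42 ± 0.04) and FKBP1A (0.50 ± 0.13 and 0.28 ± 0.05) higher in both. The 3 that rose in SCC15 were near the 30.9% of all genes, while 30% of all genes fell there. Without squamocin replicate 1 or 3 of SCC15, 1 or 2 immunophilins fell. In SCC25, 38.3% of all genes rose and 38.5% fell. At equal totals 1 immunophilin rose and 4 fell in SCC15, near the 14.6% and 51% of all genes, and FKBP1A was at -0.003. The counts in SCC25 were 3 and 3, against 30.3% and 47.6%.

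Over the 12 libraries, with log2 values centred on each cell line's mean, the patterns most like that of HSP90AA1 among 12035 protein-coding genes were those of WDR41 (Pearson r = 0.999), S100A10 (0.997), RAB9A (0.997), ANAPC13 (0.996) and BCL2L1 (0.995). For HSF1 they were SLC39A13 (0.997), TRIM8 (0.996), TRAF4 (0.996), ZYX (0.994) and RASD1 (0.994). Among the members, HSP90AA1 was most like PTGES3 (r = 0.982) and least like STIP1 (-0.933), and HSP90AB1 was most like FKBP4 (0.963) and least like FKBP5 (-0.961). These values are descriptions, since all points share the same libraries and the treatment sets most of the spread.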

How the data were processed

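RNA was purified with TRIzol and made into libraries with a NEBNext Ultra kit. The authors aligned reads to GRCh38 with HISAT2 (2.0.5) and counted them per gene with featureCounts (1.5.0-p3). The deposited signal is these counts divided by 1 size factor per library, per cell line, though columns of the SCC25 table are headed as FPKM. Values times a recovered factor were whole reads for 100% of values (tolerance 0.01). The authors also deposited group means, log2 fold changes and p-values of their DESeq2 comparison, and these were not used.

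Log2(normalized count + 1) was fitted with limma 3.58.1 (R 4.3.3, empirical Bayes with trend), two-sided, for genes with a mean of at least 10, with Benjamini-Hochberg adjustment over all tested genes at 0.05. Fold changes on that scale understate those of low genes. The difference between cell lines was a contrast over 12 libraries. The fits were tested on simulated data with a common spread, few changed genes and no outlying library. That test therefore does not cover the outlying replicates or the many changed genes of these data. Alternatives were pseudocounts of 0.1 and 10, other filters, TMM factors and equal totals, tests of the recovered reads (edgeR 4.0.16, and DESeq2 1.42.0), a replicate block, each library left out, and a minimum log2 fold change of 1. The members and lists were chosen with earlier results of these data known. Genes beyond the members were named by rule: in each list, up to 3 higher and 3 lower in both lines with the largest mean change, the 5 genes most like HSP90AA1 and HSF1, overlapping genes and pseudogenes. Intervals beyond replicate spread are not given, since reads without molecular identifiers cover counting error only. Lengths and MANE transcripts are from GENCODE v44.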

Additional observations from a re-analysis of the deposited data

Results flagged for a closer look

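The response to squamocin differed between the cell lines for all 10 members by the contrast over 12 libraries (limma, adjusted p from 1.66e-07 to 0.0344), which is what marked them. As SCC25 minus SCC15 on the log2 scale the differences were -1.614 for TRAP1, -1.369 for CDC37, -0.7524 for HSP90AB1, -0.7406 for AHSA1, -0.7179 for STIP1, -0.6908 for HSF1 and -0.4667 for FKBP4. They were 0.413 for HSP90AA1, 0.4526 for FKBP5 and 0.4739 for PTGES3. Since 52.2% of all genes tested in both lines differed, this share is no mark of these genes alone.

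Reads of HSP90AA1 per read of HSP90AB1 went down with squamocin in every SCC15 library, to 0.6728 of the control mean, and up in every SCC25 library, to 1.51 of it. Reads of CDC37 per 100 reads of HSP90AA1 and HSP90AB1 went up to 1.143 of the control in SCC15 and down to 0.5117 in SCC25. The differences between the cell lines in these ratios were not tested.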

How the results depend on the processing

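With equal library totals the members called higher in SCC15 numbered 3 and those lower 3 (7 and 1 as reported), and in SCC25 3 were higher (5 as reported). With a minimum absolute log2 fold change of 1, 1 member was higher and 0 lower in SCC15, and 1 was higher and 1 lower in SCC25. Leaving out single libraries gave 5 to 8 members higher and 1 to 2 lower in SCC15, 4 to 5 higher and 5 lower in SCC25, and 9 to 10 that differed. With equal library totals the log2 fold change reversed for HSP90AA1 in SCC15 (-0.227), HSP90AB1 in SCC25 (-0.1181) and AHSA1 in SCC15 (-0.0694). The edgeR test on the recovered reads gave 7 and 1 in SCC15 and 5 and 5 in SCC25, and DESeq2 gave 8 and 1, and 4 and 5. The labels do not say whether libraries with the same replicate number were handled as pairs. Deviations of like-numbered libraries correlated by -0.051 to 0.008, which shows no shared deviation but cannot exclude pairing. With the number as a replicate block, 7 and 1 were called in SCC15 and 4 and 5 in SCC25, and HSP90AB1 in SCC25 (0.09) had an adjusted p of 0.0792. Depth did not limit the members, which all had at least 196 reads per library, while 3 libraries per group, of which squamocin replicate 3 stood apart in SCC15 and, by less, in SCC25, limit the precision.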
